A study of Mus musculus with 4 samples.

Results

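The replication-dependent histone genes encode the bulk histones that package newly copied DNA. Their entries were taken from a table of gene expression in sorted B-lineage cells by symbol, as every name that begins with Hist1h, Hist2h, Hist3h or Hist4h. The rule found 68 of 23275 entries. By type they comprised 6 linker histone H1 entries, 18 H2A, 19 H2B, 12 H3 and 13 H4 entries. By cluster, 54 belonged to Hist1 on chromosome 13, 10 to Hist2 on chromosome 3, 3 to Hist3 on chromosome 11 and 1 to Hist4 on chromosome 6. The symbol does not separate every kind of gene. Hist3h2bb-ps is named as a pseudogene, and Hist1h1t, Hist1h2aa and Hist1h2ba are known as testis histones, which were listed at no more than 0.194 FPKM here. A further 3 entries each named 2 symbols, and 6 entries shared their position with another member.

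RNA was measured in B220+CD43+ cells, an early B-lineage phenotype, sorted from the bone marrow of C57BL/6 mice at 8 weeks. The Hdac3-deleted group was Hdac3F/-Mb1cre+/-, with 1 conditional and 1 null allele of histone deacetylase 3, and the wild-type group was Hdac3+/+Mb1cre+/-. Both groups carried the Mb1cre recombinase, which is active from the early B-cell stage. In the Hdac3-deleted group, cells of another type in the sort would thus keep the conditional allele beside the null one. There were 2 libraries per genotype, each from the pooled cells of 2 mice, and they were made from polyadenylated RNA. The study asks what the loss of Hdac3 does to B-cell development.

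All levels are in FPKM, read fragments scaled to transcript length and library size. The authors deposited 1 combined value per genotype, so no spread between libraries can be given and the depth of the libraries is unknown. A log2 fold change is the log2 of the Hdac3-deleted over the wild-type FPKM. An entry was called at q under 0.05 in the authors' deposited table of Cuffdiff tests, and rose or fell is said of called entries alone. Hdac3 itself, on chromosome 18, had 22.0 FPKM in Hdac3-deleted cells, 47.1% of its 46.8 FPKM in wild-type cells, with q = 0.0016 in the authors' deposited table. Early B-lineage markers summed to 2918 FPKM in Hdac3-deleted cells and 2085 FPKM in wild-type cells, and all 10 had a positive log2 fold change, with 3 called higher. Of 10 neutrophil markers 9 were called lower, and their summed level was 2672 FPKM in Hdac3-deleted cells and 10816 FPKM in wild-type cells, with none listed at 0. Of all 12683 tested entries, 2.81% were called higher and 4.14% lower.

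Most mRNAs of these genes are made in S phase and end in a conserved stem-loop that binds the stem-loop binding protein Slbp, in place of a poly(A) tail. A library of polyadenylated RNA therefore holds little of that form. In human cells, several of the same genes, among them those for an H1, an H2A and some H2B histones, are also known to give polyadenylated transcripts from a site beyond the stem-loop, above all in cells that have left the cycle. The values given here come from such libraries, and no value here separates tailed from stem-loop RNA.

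The stem-loop stands at the end of the usual histone mRNA, and its place within an entry decides how much of a longer transcript the entry could count. It was looked for with the stem-loop consensus in the transcripts of the GENCODE M21 annotation, on the transcribed strand, and 46 of 68 member symbols held a match. A single place on mm10 was found for 45 of them. Those 45 carried 8 distinct 16-base forms, the commonest in 25 symbols. The lines that follow give it with 5 bases on either side and the 16 bases in capitals, for the 5 most abundant entries that hold one and for Hist1h2ae, the H2A neighbour of Hist1h2bg.
Hist1h1c: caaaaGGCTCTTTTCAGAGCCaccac
Hist1h2bg: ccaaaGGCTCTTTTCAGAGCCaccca
Hist3h2a: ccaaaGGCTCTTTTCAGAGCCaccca
Hist3h2ba: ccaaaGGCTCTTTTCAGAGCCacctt
Hist1h4i: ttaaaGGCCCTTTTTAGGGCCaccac
Hist1h2ae: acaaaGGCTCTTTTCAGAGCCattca
The 16 bases lie at chr13:23739512-23739527 on the plus strand for Hist1h1c and at chr13:23571843-23571858 on the plus strand for Hist1h2bg. Those of Hist3h2a lie at chr11:58955172-58955187 on the plus strand, those of Hist3h2ba at chr11:58949349-58949364 on the plus strand, those of Hist1h4i at chr13:22040966-22040981 on the minus strand and those of Hist1h2ae at chr13:23570668-23570683 on the minus strand. The H1, H2A and H2B entries share one form, and the H4 entry has another stem. The 2 entries called lower, Hist1h2bg and Hist1h1c, carry the same 16 bases as Hist3h2a and Hist3h2ba, which were not called.

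Across the family, 2 entries fell in Hdac3-deleted cells and 0 rose. Hist1h2bg, an H2B gene, was 4.44-fold lower, and Hist1h1c, a linker histone gene, was 1.64-fold lower. The authors tested 35 of the 68 entries, so 5.71% of the tested members were called, against 6.95% of the 12683 entries tested in the whole table. In the lower direction alone the whole table had 4.14% called, and in the higher direction 2.81%. At an unadjusted p under 0.05 the members numbered 4, the other two being Hist1h2ac and Hist1h3g. With so few tested members, the share called lay near that of the table.

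The tested members had a median log2 fold change of -0.13, with 24 negative and 11 positive values between -2.15 and 2.50. Over all tested entries the median was 0.03, with 5878 negative and 6765 positive values. Of the tested members, 18 lay within 0.5 log2 units of no difference. Another 10 differed by 2-fold or more, 6 of them lower and 4 higher in Hdac3-deleted cells, and 9 of the 10 stayed under 5 FPKM in both genotypes. The summed level of all 68 entries was 97.0 FPKM in Hdac3-deleted cells and 121 FPKM in wild-type cells, a log2 ratio of -0.32. That is 0.0171% of all FPKM of the table in Hdac3-deleted cells and 0.0207% in wild-type cells. Without Hist1h2bg the log2 ratio of the sums was -0.24. These are sums over sorted cells in bulk, in which fewer cells of a type and less RNA per cell cannot be told apart.

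**Figure D1:**
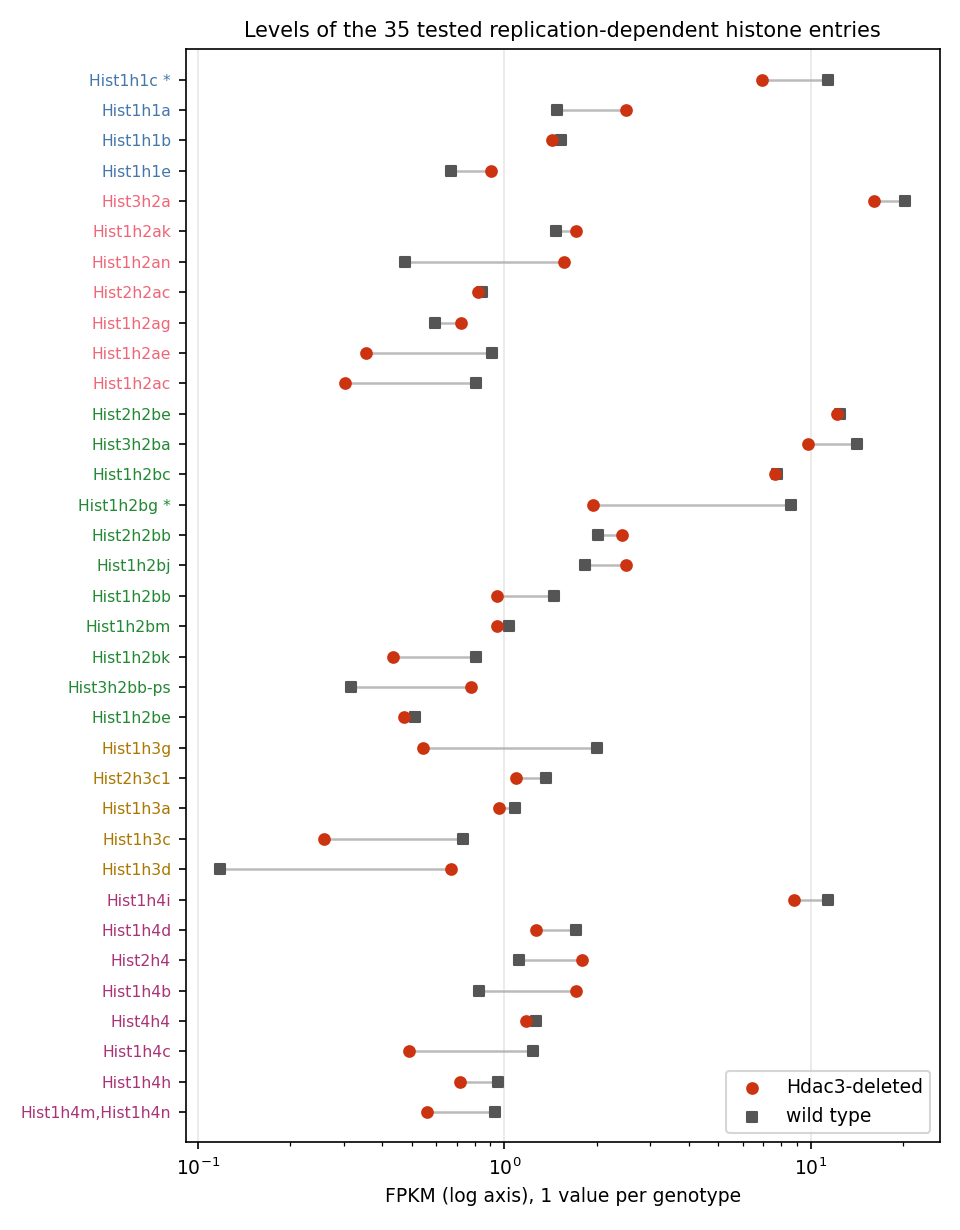
FPKM of the 35 tested histone entries on a log axis, one row per entry grouped by histone type, with a red circle for Hdac3-deleted and a dark grey square for wild-type cells. An asterisk marks the 2 called entries, and only 7 entries reach 5 FPKM in either genotype.

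Levels were low and concentrated. A level of 5 FPKM in either genotype was reached by 7 entries, which held 65.4% of the summed histone FPKM in Hdac3-deleted cells and 71.3% in wild-type cells. Hist1h2bg reached that level through the wild-type value alone, so its negative sign follows from the threshold. The 6 entries that reached it in both genotypes had log2 fold changes between -0.71 and -0.02, with a median of -0.35, and they summed to 61.5 FPKM in Hdac3-deleted cells and 77.5 FPKM in wild-type cells. The 61 entries under 5 FPKM in both genotypes summed to 33.6 FPKM in Hdac3-deleted cells and 34.7 FPKM in wild-type cells. Of these, 28 were tested, 17 with a negative and 11 with a positive value and a median of -0.11, and 0 were called. The 33 entries that were not tested all had at most 0.814 FPKM in either genotype, and 12 entries were listed at 0 in both genotypes.

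**Figure D2:**
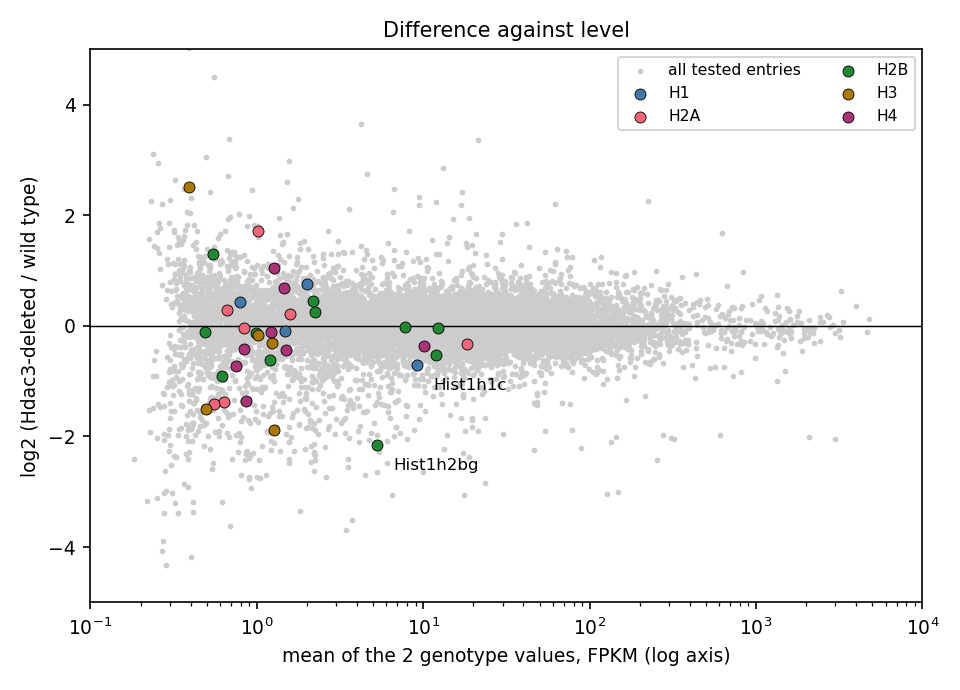
Log2 fold change against mean FPKM of the 2 genotypes on a log axis, for the tested histone entries in colour and the other tested entries in grey. Of 12643 tested entries above 0 in both genotypes, 8 lie beyond the axes, and the histone entries under 2 FPKM spread to both sides of 0.

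The linker histone H1 binds the DNA where it enters and leaves the nucleosome. Among its 6 genes, Hist1h1c led, at chr13:23738807-23740367 on mm10, with 6.93 FPKM in Hdac3-deleted cells and 11.4 FPKM in wild-type cells. It fell by 0.71 on the log2 scale, with q = 0.0444 in the authors' deposited table, just inside the threshold. The standard error implied by the deposited test statistic was 0.32, which gives a 95% interval of -1.34 to -0.09. When p-values were instead taken from a normal approximation to that statistic over all tested entries, q was 0.325 and Hist1h1c was no longer called.

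The remaining H1 genes were lower in level. Hist1h1a had 2.50 FPKM in Hdac3-deleted cells and 1.49 FPKM in wild-type cells, a log2 fold change of 0.75 with q = 0.399 in the authors' deposited table. Hist1h1b had 1.43 FPKM in Hdac3-deleted cells and 1.53 FPKM in wild-type cells. Hist1h1e had 0.906 FPKM in Hdac3-deleted cells and 0.669 FPKM in wild-type cells, in an entry that spans 38889 bases and shares its position with Hist1h2be. Hist1h1d, not tested, had 0.333 FPKM in Hdac3-deleted cells and 0.436 FPKM in wild-type cells. The H1 sum was 12.1 FPKM in Hdac3-deleted cells and 15.5 FPKM in wild-type cells, while the median of the 4 tested entries was 0.17, or -0.10 without the entries that share a position. The sign of the H1 median thus depended on which entries were kept, and Hist1h1c made up most of the sum.

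The H2B histones pair with H2A on the outer faces of the nucleosome core, and 4 of the 7 abundant entries encode them. Hist1h2bg, at chr13:23571400-23572014, had 1.94 FPKM in Hdac3-deleted cells and 8.62 FPKM in wild-type cells. It fell by 2.15 on the log2 scale, with an implied standard error of 0.41 and a 95% interval of -2.95 to -1.35. The authors' deposited table gives p = 5e-05 and q = 0.0016. The next largest difference among the abundant entries was the 0.71 of Hist1h1c, but Hist1h2bg counted as abundant through its wild-type value alone.

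The other 3 abundant H2B entries were not called. Hist2h2be, at chr3:96221121-96223738, had 12.2 FPKM in Hdac3-deleted cells and 12.4 FPKM in wild-type cells, with a 95% interval of -0.49 to 0.43 on the log2 scale. Hist1h2bc, at chr13:23684199-23692480, had 7.66 FPKM in Hdac3-deleted cells and 7.79 FPKM in wild-type cells, with an interval of -0.72 to 0.67. Both pairs of values are nearly equal, though the interval of Hist1h2bc still includes a difference of the size seen in Hist1h1c. Hist3h2ba, at chr11:58948911-58949530, had 9.79 FPKM in Hdac3-deleted cells and 14.1 FPKM in wild-type cells, a log2 fold change of -0.53 with an interval of -1.11 to 0.06 and q = 0.325 in the authors' deposited table. The interval of Hist1h2bg overlaps none of those of Hist2h2be, Hist1h2bc and Hist3h2ba, but the difference between genes was not tested.

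The less abundant H2B entries varied in both directions. Hist1h2bj had 2.50 FPKM in Hdac3-deleted cells and 1.83 FPKM in wild-type cells, and Hist2h2bb had 2.42 FPKM in Hdac3-deleted cells and 2.03 FPKM in wild-type cells. Hist1h2bb had 0.946 FPKM in Hdac3-deleted cells and 1.45 FPKM in wild-type cells, and Hist1h2bm had 0.945 FPKM in Hdac3-deleted cells and 1.04 FPKM in wild-type cells. Hist1h2bk had 0.431 FPKM in Hdac3-deleted cells and 0.810 FPKM in wild-type cells. None of these was called. The pseudogene Hist3h2bb-ps had 0.778 FPKM in Hdac3-deleted cells and 0.317 FPKM in wild-type cells, and Hist1h2be, with its shared position, had 0.471 FPKM in Hdac3-deleted cells and 0.509 FPKM in wild-type cells. Hist1h2bf, Hist1h2bh and Hist1h2bl, each of 381 bases, all had the same 0.112 FPKM in Hdac3-deleted cells, the lowest value above 0 among entries of that length. The H2B sum was 40.5 FPKM in Hdac3-deleted cells and 51.7 FPKM in wild-type cells, with a median log2 fold change of -0.11 over 11 tested entries.

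Of the 18 H2A entries 7 were tested and 0 called. Hist3h2a, at chr11:58954685-58956674, was the most abundant member of the family, with 16.2 FPKM in Hdac3-deleted cells and 20.4 FPKM in wild-type cells. Its log2 fold change was -0.34, with an interval of -0.80 to 0.13 and q = 0.431 in the authors' deposited table. In the annotation the gene overlaps Trim17 on the same strand and Gm44313 on the other, and no source used here says whether counting used strand, so reads of these genes may add to its value.

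The remaining H2A genes that were tested had under 2 FPKM. Hist1h2ac had 0.303 FPKM in Hdac3-deleted cells and 0.805 FPKM in wild-type cells, a log2 fold change of -1.41 with p = 0.00700 and q = 0.0829 in the authors' deposited table, so it missed the threshold. Hist1h2ae had 0.352 FPKM in Hdac3-deleted cells and 0.912 FPKM in wild-type cells, with q = 0.347 in the authors' deposited table. Hist1h2an went the other way, with 1.56 FPKM in Hdac3-deleted cells and 0.473 FPKM in wild-type cells, a log2 fold change of 1.72 with q = 0.335 in the authors' deposited table. Hist1h2ak had 1.71 FPKM in Hdac3-deleted cells and 1.48 FPKM in wild-type cells. Hist2h2ac had 0.822 FPKM in Hdac3-deleted cells and 0.844 FPKM in wild-type cells, and Hist1h2ag had 0.724 FPKM in Hdac3-deleted cells and 0.594 FPKM in wild-type cells. The H2A sum was 22.1 FPKM in Hdac3-deleted cells and 26.3 FPKM in wild-type cells, of which Hist3h2a held most. A further 7 H2A entries were listed at 0 in both genotypes.

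The H3 and H4 histones form the tetramer at the centre of the nucleosome, and the H3 genes had the lowest sum of the 5 types. The 12 H3 entries summed to 4.76 FPKM in Hdac3-deleted cells and 6.82 FPKM in wild-type cells. Hist1h3g had 0.543 FPKM in Hdac3-deleted cells and 2.01 FPKM in wild-type cells, a log2 fold change of -1.88 with p = 0.0219 and q = 0.178 in the authors' deposited table. Hist1h3c had 0.257 FPKM in Hdac3-deleted cells and 0.731 FPKM in wild-type cells. Hist1h3d had 0.669 FPKM in Hdac3-deleted cells and 0.118 FPKM in wild-type cells, and its log2 fold change of 2.50 had an implied standard error of 1.62. Hist2h3c1 had 1.09 FPKM in Hdac3-deleted cells and 1.37 FPKM in wild-type cells, and Hist1h3a had 0.959 FPKM in Hdac3-deleted cells and 1.08 FPKM in wild-type cells. The 3 H3 entries with the widest fold differences also had the largest implied standard errors of the type, and 0 of 5 tested were called.

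Among the 13 H4 entries Hist1h4i stood above the rest, at chr13:22040816-22041352, with 8.81 FPKM in Hdac3-deleted cells and 11.4 FPKM in wild-type cells. Its log2 fold change was -0.37, with an interval of -0.98 to 0.24 and q = 0.625 in the authors' deposited table. Hist2h4 had 1.79 FPKM in Hdac3-deleted cells and 1.12 FPKM in wild-type cells, and Hist1h4b had 1.72 FPKM in Hdac3-deleted cells and 0.827 FPKM in wild-type cells. Hist1h4d had 1.27 FPKM in Hdac3-deleted cells and 1.71 FPKM in wild-type cells, and Hist4h4 had 1.17 FPKM in Hdac3-deleted cells and 1.27 FPKM in wild-type cells. Hist1h4c had 0.487 FPKM in Hdac3-deleted cells and 1.24 FPKM in wild-type cells. Hist1h4h had 0.715 FPKM in Hdac3-deleted cells and 0.955 FPKM in wild-type cells, and the entry that joins Hist1h4m and Hist1h4n had 0.560 FPKM in Hdac3-deleted cells and 0.930 FPKM in wild-type cells. None of these passed the test. The H4 sum was 17.6 FPKM in Hdac3-deleted cells and 20.5 FPKM in wild-type cells.

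Compared over the types, each sum was lower in Hdac3-deleted cells, with log2 ratios of -0.36 for H1, -0.25 for H2A, -0.35 for H2B, -0.52 for H3 and -0.22 for H4. Single abundant entries weigh heavily in these sums, such as Hist1h1c in H1, Hist1h2bg in H2B and Hist1h4i in H4. The medians of the tested entries were 0.17 for H1, -0.04 for H2A, -0.11 for H2B, -0.32 for H3 and -0.39 for H4. Among the 4 tested H1 entries 2 values were negative and 2 positive, so the H1 sum and the H1 median differ in sign. No test was made between types, whose members are not replicates of a genotype.

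By cluster, the 2 called entries lay in Hist1. The 54 Hist1 entries summed to 50.5 FPKM in Hdac3-deleted cells and 66.6 FPKM in wild-type cells, with a median log2 fold change of -0.27 over 26 tested. The 3 Hist3 entries summed to 26.7 FPKM in Hdac3-deleted cells and 34.8 FPKM in wild-type cells. The 10 Hist2 entries summed to 18.6 FPKM in Hdac3-deleted cells and 18.1 FPKM in wild-type cells, most of it from Hist2h2be, and their median over 5 tested was -0.03, or 0.11 among entries of at least 1 FPKM in both genotypes. Hist4h4, the only Hist4 entry, had the values already given. Hist2 was therefore the one of the 4 clusters whose sum was not lower in Hdac3-deleted cells.

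The Hist1 cluster runs over 2219 kb and falls into 2 blocks, parted by a stretch of 1487 kb between Hist1h2bj and Hist1h4h. In the block after the stretch 17 entries were tested, 13 with a negative value, and the 31 entries summed to 30.6 FPKM in Hdac3-deleted cells and 45.6 FPKM in wild-type cells. In the block before it 9 entries were tested, 5 with a negative value, and the 23 entries summed to 19.9 FPKM in Hdac3-deleted cells and 21.0 FPKM in wild-type cells. Both called entries lay in the block after the stretch, which held 17 of the 26 tested Hist1 entries, among neighbours of either sign. They account for most of the gap between the sums of that block. The difference between the blocks was not tested.

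**Figure D3:**
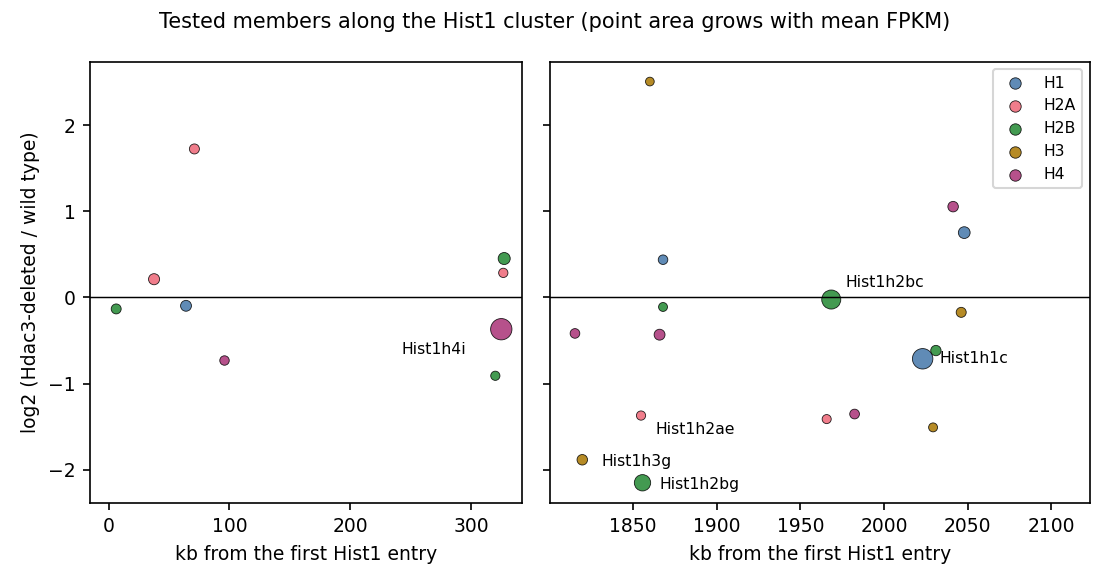
Log2 fold change of tested Hist1 entries against distance in kb from the first Hist1 entry, in 2 panels for the 2 blocks, coloured by histone type, with larger points for higher mean FPKM. Hist1h2bg and Hist1h1c lie in the right panel, among entries with positive and with negative values.

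H2A and H2B genes often stand head to head and share the sequence between them, and 12 neighbouring pairs of an H2A and an H2B entry were found. Outside the pair of Hist1h2ap and Hist1h2bq, the genes of a pair are transcribed away from each other in the annotation. RefSeq places Hist1h2bq and Hist1h2br at each other's deposited positions, so the symbol does not give the strand in that pair. Both genes were tested in 5 of them, and in 4 the values had the same sign. Hist1h2bg stands 179 bases from Hist1h2ae, and their log2 fold changes were -2.15 and -1.37. The pair of Hist1h2bc and Hist1h2ac lies 239 bases apart, with -0.02 for the H2B and -1.41 for the H2A gene. Hist2h2be and Hist2h2ac had -0.03 and -0.04, and Hist1h2bj and Hist1h2ag had 0.45 and 0.28. The pseudogene Hist3h2bb-ps had 1.30 beside -0.34 for Hist3h2a. Among pairs with 1 or no tested gene, Hist1h2an and the untested Hist1h2bp also had opposite signs, with 1.72 and -0.63.

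The promoter windows of the 2 called genes are shown because they differ in exact matches to motifs that histone promoters are known for. They are RefSeq sequences of GRCm38.p6, from 250 bases before to 50 after the start, at chr13:23571150-23571449 for Hist1h2bg and chr13:23738557-23738856 for Hist1h1c, both on the plus strand. Capitals mark matches to the TATA motif TATAAA, the CCAAT box CCAAT and the octamer ATTTGCAT, on either strand.
Hist1h2bg: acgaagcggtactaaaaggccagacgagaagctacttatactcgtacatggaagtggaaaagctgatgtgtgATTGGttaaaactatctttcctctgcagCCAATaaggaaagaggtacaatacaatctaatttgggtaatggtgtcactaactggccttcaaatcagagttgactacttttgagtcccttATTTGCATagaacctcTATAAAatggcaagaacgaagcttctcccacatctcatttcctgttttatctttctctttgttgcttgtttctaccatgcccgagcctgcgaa
Hist1h1c: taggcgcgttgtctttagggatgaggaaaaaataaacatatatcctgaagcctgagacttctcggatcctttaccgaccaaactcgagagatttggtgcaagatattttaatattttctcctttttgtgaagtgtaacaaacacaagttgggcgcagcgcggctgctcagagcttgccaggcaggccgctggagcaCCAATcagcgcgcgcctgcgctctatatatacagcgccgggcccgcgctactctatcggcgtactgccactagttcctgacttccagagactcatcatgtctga
The Hist1h2bg window holds all 3 motifs, and the window of Hist1h2ae covers much of the same bases from the other strand. Of the exact letters searched, the Hist1h1c window holds CCAAT alone. Its stretch of alternating T and A shortly before the start is no exact TATAAA match, and looser forms of that motif were not searched. The octamer, known as the site bound by Oct1 in H2B promoters, was found in 7 of 17 H2B and 7 of 17 H2A windows. It was found in no window of an H1, H3 or H4 gene and in 1.74% of the 32851 promoters in the RefSeq table. Some head-to-head pairs held the octamer in both windows, as Hist1h2bg and Hist1h2ae did. Others held it in neither, as Hist1h2bj and Hist1h2ag. CCAAT stood in all H1, H2A, H2B and H3 windows but in only 3 of 12 H4 windows, against 37.4% of all promoters, and TATAAA in 35 of 62 member windows, against 13.6%. A match is a description of the letters in this window, and 61 of the 68 symbols had a window.

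Entries of at least 5 FPKM in either genotype had a median span of 1561 bases on the genome, against 411 bases for the others, but the ranges overlapped. Hist1h4i, at 537 bases, Hist1h2bg, at 615 bases, and Hist3h2ba, at 620 bases, were short, and Hist1h2br and Hist1h2bq, at 3788 bases each, were listed at 0 in both genotypes. The end of each entry was then placed against its stem-loop, with classes defined after the values had been seen. Of 39 entries that could be placed, 14 ran 100 bases or more past the stem-loop, 6 ended 5 to 48 bases past it, and 19 ended 17 to 52 bases before it.

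All 5 placed entries of at least 5 FPKM ran well past the stem-loop, by 1487 bases in Hist3h2a, 840 in Hist1h1c, 166 in Hist3h2ba, 156 in Hist1h2bg and 150 in Hist1h4i. No entry that ended before the stem-loop exceeded 2.50 FPKM in Hdac3-deleted or 1.83 FPKM in wild-type cells, and the 6 that ended just past it reached at most 0.959 FPKM in Hdac3-deleted and 2.01 FPKM in wild-type cells. Reads beyond an entry's end do not count toward it, so a longer transcript of a short entry would be missed in part. A long entry did not always have a high level. Hist4h4, which ran 2445 bases past its stem-loop, and Hist1h2ac, with 2010 bases, had under 2 FPKM in both genotypes. Hist2h2be and Hist1h2bc, the other two abundant entries, had no stem-loop match in the annotated transcripts.

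The direction of the difference was more uniform among the tested entries that ran 100 bases or more past the stem-loop. All 9 had a negative log2 fold change, between -2.15 and -0.12, with a median of -0.53. They include the 5 abundant entries already described, of which Hist1h2bg reached 5 FPKM through its wild-type value alone. In the untested Hist2h3c2 of the same class the sign was opposite, with 0.187 FPKM in Hdac3-deleted cells and 0.150 FPKM in wild-type cells. The other untested entries of that class were lower in Hdac3-deleted cells. The entries that ended just past the stem-loop had 4 negative and 1 positive value, with a median of -0.42. Those that ended before it had 6 negative and 4 positive values, with a median of -0.09, and the 8 tested entries with no match had 3 negative and 5 positive values, with a median of 0.23. No test was made between these classes. Hist1h2bc and Hist2h2be, long entries of the last class, had values close to 0. That class also held the pseudogene Hist3h2bb-ps. It held Hist1h2an, Hist1h2ak and Hist2h2bb too, whose annotated transcripts of 393, 393 and 381 bases may stop short of a stem-loop. A missing match is thus not shown to be a missing stem-loop.

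**Figure D4:**
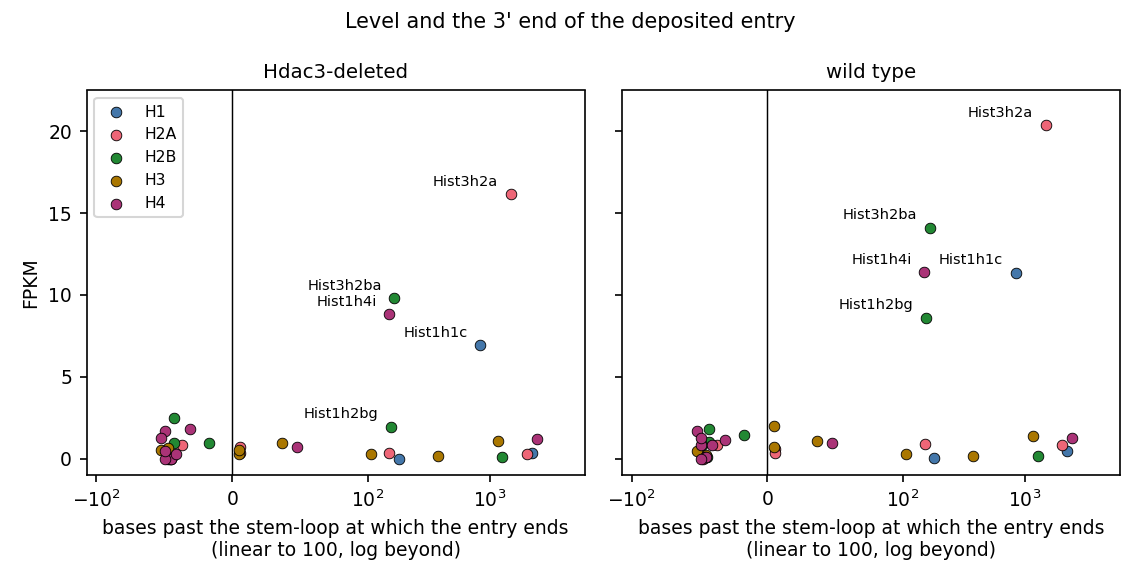
FPKM of the placed histone entries against the distance in bases from the stem-loop to the end of the entry, with the Hdac3-deleted panel on the left and the wild-type panel on the right. The level axis is linear, the distance axis is linear within 100 bases of 0 and logarithmic beyond, and the labelled entries of at least 5 FPKM all lie to the right of 100 bases.

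Histone coding regions are alike, so reads may be split among genes. Of the stretches of 50 bases in each symbol's annotated transcripts, a median of 51.9% also occurred in another gene, and 34 of 68 symbols shared at least 50%. For Hist1h2bg the share was 49.7%, spread over 14 other genes, the highest of the 7 abundant entries, so its level is uncertain for this reason. It was 8.54% for Hist1h1c, 22.1% for Hist3h2ba, 28.9% for Hist1h4i, 30.6% for Hist1h2bc, 31.5% for Hist3h2a and 0% for Hist2h2be. No source used here says how the authors' counting treated such reads.

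Replacement histones, most of whose mRNAs carry a poly(A) tail and are not confined to S phase, stood far above these genes. That description is general and was not checked for single entries such as H2afx and Cenpa. The 11 entries summed to 3274 FPKM in Hdac3-deleted cells and 3883 FPKM in wild-type cells. Among 10 tested entries 2 fell and 0 rose, and their median log2 fold change was -0.13, as it was for the replication-dependent members. For the counts of this and the following lists, the whole table had 4.14% called lower and 2.81% called higher. H2afz, the gene of the variant H2A.Z, had 505 FPKM in Hdac3-deleted cells and 951 FPKM in wild-type cells and fell by 0.91 on the log2 scale, with q = 0.0016 in the authors' deposited table. Cenpa, the centromeric H3, had 82.7 FPKM in Hdac3-deleted cells and 138 FPKM in wild-type cells and fell by 0.74, with q = 0.0053 in the authors' deposited table. The genes of H3.3 were not called, H3f3a having 1096 FPKM in Hdac3-deleted cells and 1034 FPKM in wild-type cells, and H3f3b 674 FPKM in Hdac3-deleted cells and 852 FPKM in wild-type cells. H3f3a alone thus exceeded the 97.0 and 121 FPKM of all replication-dependent entries by far.

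The factors that make, bind and degrade histone mRNA were not called, with 0 of 19 past the threshold and a median log2 fold change of -0.05. Slbp, which binds the stem-loop, had 153 FPKM in Hdac3-deleted cells and 191 FPKM in wild-type cells, with q = 0.435 in the authors' deposited table. Srrt, which links the cap-binding complex to histone mRNA processing, had 91.4 FPKM in Hdac3-deleted cells and 84.2 FPKM in wild-type cells. Cpsf2, a subunit of the cleavage complex, had 45.3 FPKM in Hdac3-deleted cells and 50.7 FPKM in wild-type cells.

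Histone chaperones and modifiers of new histones included 2 called lower of 20 tested and 0 called higher, with a median of -0.21. Nasp, a chaperone of H1 and of the H3 and H4 pool, had 71.3 FPKM in Hdac3-deleted cells and 117 FPKM in wild-type cells, with a log2 fold change of -0.72 and q = 0.00855 in the authors' deposited table. Hat1, which acetylates new H4, had 61.1 FPKM in Hdac3-deleted cells and 91.6 FPKM in wild-type cells, with a log2 fold change of -0.58 and q = 0.0331 in the authors' deposited table. All 32 genes of DNA replication and S phase had a negative value, with a median of -0.47, and 5 were called lower. Among those, Ccna2, cyclin A, had 140 FPKM in Hdac3-deleted cells and 236 FPKM in wild-type cells, and Dut, the dUTPase, had 61.7 FPKM in Hdac3-deleted cells and 98.2 FPKM in wild-type cells. Rrm2, Mcm5 and Pola1 were the others. Hist1h2bg, with a log2 fold change of -2.15, lay below the whole range of the S phase list, which ran from -0.75 to -0.09, while Hist1h1c, with -0.71, lay inside it.

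**Figure D5:**
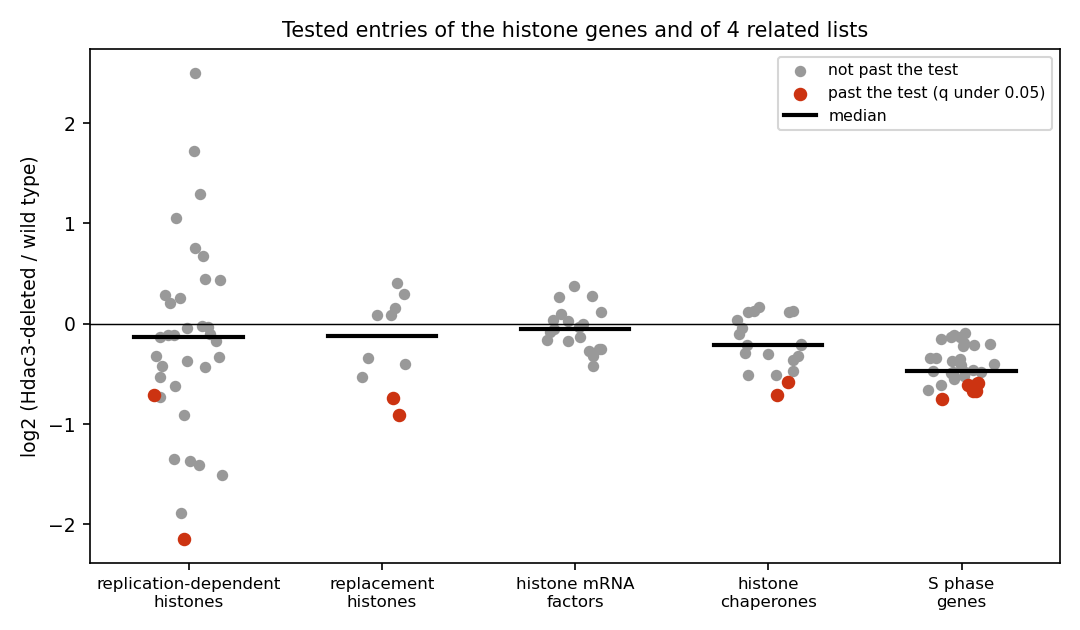
Log2 fold change of each tested entry of the replication-dependent histones and of 4 related lists, one column per list, with a bar at each median and red points for called entries. The histone members spread widest, and every S phase gene lies below 0.

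Markers of some other cell types differed between the genotypes beside these results. The 9 called neutrophil markers and the tenth one had log2 fold changes from -2.10 to -0.98, with a median of -1.99, led by S100a8 with 1172 FPKM in Hdac3-deleted cells and 4815 FPKM in wild-type cells. Of 4 basophil and mast cell markers 2 were called lower, with a median of -2.28 and sums of 4.29 FPKM in Hdac3-deleted cells and 20.7 FPKM in wild-type cells. Of 5 tested erythroid markers 1 was called lower, 4 values being negative and 1 positive. The sums over 8 entries were 32.5 FPKM in Hdac3-deleted cells and 63.2 FPKM in wild-type cells. Most of both came from the called Car2, with 26.3 FPKM in Hdac3-deleted cells and 54.4 FPKM in wild-type cells. The entry that joins Hba-a1 and Hba-a2 had 2.61 FPKM in Hdac3-deleted cells and 2.23 FPKM in wild-type cells. None of 5 plasmacytoid dendritic cell and of 6 T and NK cell markers was called, and no marker of these lists was listed at 0 in both genotypes. All 5 plasmacytoid dendritic cell markers had a positive value, with a median of 0.41. Their sums were 1990 FPKM in Hdac3-deleted cells and 1542 FPKM in wild-type cells. The T and NK cell markers had 5 positive values and 1 negative value, with a median of 0.07. The value of Hist1h2bg, -2.15, lay just beyond the lowest of the neutrophil list, and that of Hist1h1c, -0.71, did not reach that list's range. The part of other cells in the level of Hist1h2bg was not tested.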

How the data were processed

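Polyadenylated RNA of B220+CD43+ marrow cells was measured in 4 libraries, 2 per genotype, each pooling cells of 2 mice. Nothing beyond that pooling says how far the libraries of a genotype are independent, so p-values measure the spread between these libraries as the authors modelled it. Per the submitters' processing notes, Trimmomatic 0.32, TopHat2 2.0.11 and Cuffdiff 2.1.1 were used with the mm10 build. No source used here gives their options, the annotation, how libraries were scaled, or how reads that map to several genes were treated. The deposited table holds FPKM values, per the file headers 1 per genotype, in which the authors combined the 2 libraries. It also holds the authors' test statistic, a score, and the deposited p-value and q-value. Over the 12683 tested entries, the deposited q-value differed by at most 5.27e-07 from p-values adjusted by Benjamini-Hochberg.

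No pseudocount was added to the FPKM values for log2 fold changes. Standard errors were taken as the log2 fold change over the test statistic, and 95% intervals assume a normal distribution. Positions count from 1. Medians and sums describe entries and are no test. Every tested member is given in the text, and of related lists the called members or the 3 with the highest mean, except that of marker lists at most 3 are named. The members and lists were chosen with earlier results of these data known. Stem-loops and shared stretches of 50 bases were searched in GENCODE M21 transcripts, and promoters come from RefSeq on GRCm38.p6. The code of the summaries was checked on simulated data with fold changes set in advance and no noise in the FPKM values. That check says nothing on noise in entries of low level. Alternatives varied the q threshold, the p-value, a pseudocount of 1 FPKM, a minimum of 1 FPKM, centring and shared positions, and a shift of 0.1 log2 units was counted as a move. The work used scipy 1.17.1, numpy 2.4.6, pandas 2.3.3 and matplotlib 3.10.9 in Python 3.11.15.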

Additional observations from a re-analysis of the deposited data

How the results depend on the processing

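No paired analysis was possible because the deposited table combines the 2 libraries of each genotype into 1 value, and for the same reason no library could be left out. Of 72 alternatives over 19 results, 3 lost a call, 10 moved a median by over 0.1 log2 units, and 59 changed by less, a count by at most 1.5 times. Among the 59, members called lower numbered 3 at a q threshold of 0.1, the median of all tested members was -0.07 with a pseudocount of 1 FPKM, and that of H2B was -0.03 among entries of at least 1 FPKM. The count of members called lower was 1, not 2, at a q threshold of 0.01, and 1 with p-values from a normal approximation to the test statistic, where Hist1h1c had q = 0.325. That approximation also called fewer entries in the whole table, 335 lower and 136 higher, against 525 lower and 356 higher as deposited. With a pseudocount of 1 FPKM the medians were 0.067 for H1, -0.18 for H3, -0.22 for H4 and -0.14 for Hist1. Among entries of at least 1 FPKM in both genotypes they were -0.10 for H1, -0.24 for H4, -0.10 for Hist1 and 0.11 for Hist2. Without entries that share a position they were -0.10 for H1 and -0.39 for Hist1. The cause of these shifts was not tested. The log2 ratio of the summed levels stayed between -0.34 and -0.24 in all its alternatives, including the one without Hist1h2bg, which was chosen after the data were seen. Unknown depth and levels mostly under 1 FPKM limit what can be said of most members, and an entry listed at 0 was not shown to be silent.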

Other observations

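The stretch of chromosome 13 between the outermost Hist1 members holds 52 entries that are not histone genes, many of them vomeronasal receptor genes (Vmn1r), and 41 of the 52 were listed at 0 in both genotypes. The authors tested 6, and 0 were called in the authors' deposited table, against 6.95% of all tested entries. Of the 6, 5 had a negative and 1 a positive log2 fold change. Zfp322a, a zinc finger gene, had 12.4 FPKM in Hdac3-deleted cells and 12.4 FPKM in wild-type cells, and Abt1, a gene of ribosome assembly, had 6.24 FPKM in Hdac3-deleted cells and 7.35 FPKM in wild-type cells. Hfe, which takes part in iron sensing, had 1.13 FPKM in Hdac3-deleted cells and 1.95 FPKM in wild-type cells, with q = 0.190 in the authors' deposited table. The 52 entries summed to 25.3 FPKM in Hdac3-deleted cells and 26.8 FPKM in wild-type cells, a log2 ratio of -0.08, beside -0.40 for the 54 Hist1 members among which they lie. Most of the gap between the Hist1 sums came from the called Hist1h2bg and Hist1h1c. Hist1h2bg had 1.94 FPKM in Hdac3-deleted and 8.62 FPKM in wild-type cells, and Hist1h1c had 6.93 FPKM and 11.4 FPKM in that order. The difference between the 2 log2 ratios was not tested.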
